A study of Mus musculus with 30 samples.

Results

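The 10 genes described here make fatty acids, lengthen them and place double bonds in them, and they were measured in colon tissue from 30 C57BL/6J mice. They were chosen by name and are Srebf1, Acly, Acaca, Fasn, Elovl6, Elovl5, Scd1, Scd2, Fads1 and Fads2, which is 10 of the 46078 genes in the count table. Each of 5 groups held 6 animals: females and males fed a control diet (CD F and CD M), females and males fed a high-fat diet (HFD F and HFD M), and males fed HFD and given 17β-estradiol (HFD+E2 M). All mice were wild type and 5 to 6 weeks old at the start, the females had intact ovaries, and the diets, with 60% (HFD) or 10% (CD) of energy from fat, lasted 13 weeks. For the last 3 weeks the animals received 9 intraperitoneal injections, which carried E2 at 0.5 mg per kg of body weight in HFD+E2 M and vehicle in the other 4 groups. E2 was sequenced in HFD males only, so that neither its effect in females nor its effect on CD is part of the data. The estrous cycle of the females was not followed.

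Cells build palmitate from citrate that leaves the mitochondria. ATP citrate lyase (Acly) splits citrate to acetyl-CoA, acetyl-CoA carboxylase (Acaca) turns that into malonyl-CoA, and fatty acid synthase (Fasn) joins the pieces. Elongases (Elovl6 for saturated chains, Elovl5 for polyunsaturated ones) add carbons, stearoyl-CoA desaturases (Scd1, Scd2) place the first double bond, and Fads1 and Fads2 add the further double bonds of the long polyunsaturated acids made from dietary linoleic and linolenic acid. Srebf1 encodes SREBP-1, the membrane-bound transcription factor that drives most of these genes in liver and fat, and its own RNA is known to respond to insulin, to the oxysterol receptor LXR and to dietary polyunsaturated fat.

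Total RNA without ribosomal RNA was sequenced from a piece of whole colon wall. The libraries held 8667177 to 17243712 counts in genes (median 11530915.5), and group medians ran from 10681454 in CD F to 11753059.5 in CD M. All 10 genes were counted in every library, from 94 counts for Fads1 in its lowest library to 14114 for Scd2 in its highest. The tissue carried the epithelial markers of colon: the median over 30 libraries was 556 TPM (StringTie's transcript abundance per length and per library) for Epcam, 1130 TPM for Krt8 and 1597 TPM for Lgals4, while Cdx2, a colonic transcription factor, was close to 0 with a median of 0.11 TPM. In whole tissue, fewer cells of a type and less RNA per cell cannot be told apart.

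Scd2, Fads2 and Acly were the abundant members, and Elovl6 and Fads1 the scarce ones. The median TPM over all 30 libraries was 152.7 for Scd2, 148.7 for Fads2 and 135.8 for Acly. Fasn (21.8 TPM), Srebf1 (19.7), Elovl5 (18.2), Scd1 (17.8) and Acaca (17.7) formed a middle set, and Elovl6 (5.73) and Fads1 (4.91) lay lowest. Scd2, Fads2 and Acly held the first 3 ranks in TPM in every library, and Acaca exceeded Elovl6 in 30 of 30, while in HFD M replicate 1 Srebf1 (8.91 TPM) lay below Elovl6 (10.8 TPM). Within the sets the order was not fixed: Scd2 was above Fads2 in 15 of 30 libraries, Fads2 above Acly in 20, Fasn above Srebf1 in 21, Srebf1 above Elovl5 in 18, Elovl5 above Scd1 in 16, Scd1 above Acaca in 15, and Elovl6 above Fads1 in 20. Of the 51-base words (the read length) of Acaca, 48.9% also occur in another gene, mostly Gm5182, so that its level is uncertain, and the unnamed gene Gm11437 overlaps it by 19126 bases on the opposite strand with a median of 24.5 counts. The shares were 4.48% for Scd1 (mostly with Scd3), 3.89% for Scd2 (with Scd1), 3.91% for Elovl6 (with Gm11295), 0.126% for Fads2 and 0 for the other 5 genes.

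**Figure D1:**
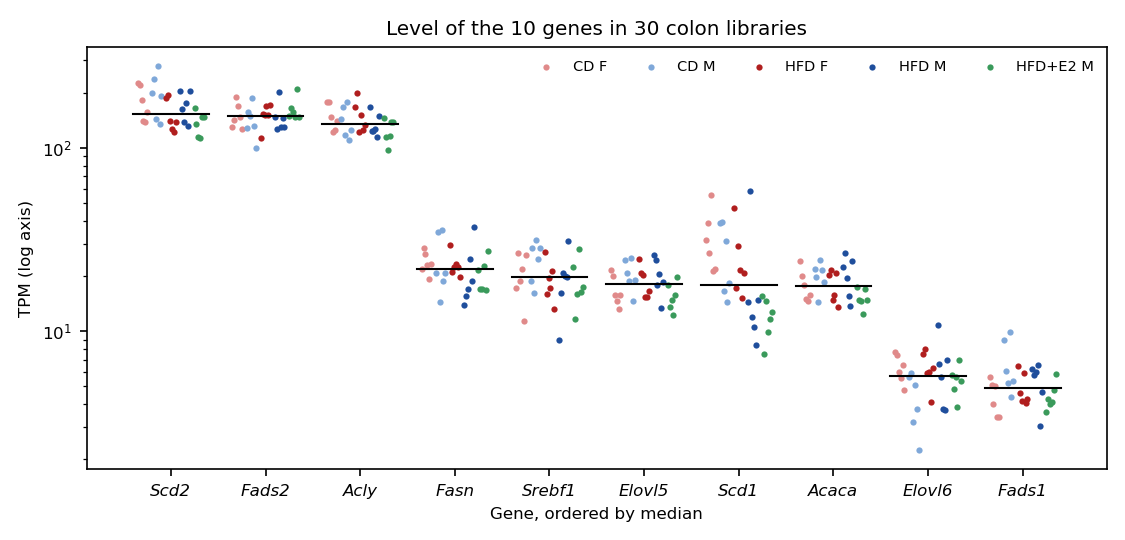
TPM (log axis) of the 10 genes in 30 colon libraries, 1 point per animal, coloured by group, with a line at the median over all 30. Scd2, Fads2 and Acly lie near 150 TPM, 5 genes near 20, and Elovl6 and Fads1 near 5, and Scd1 has the widest spread (7.47 to 58.5 TPM).

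Related enzymes were far from equal in RNA. The TPM ratio of Scd2 to Scd1 had a median of 8.31 and ran from 2.54 to 18.1, and that of Fads2 to Fads1 had a median of 31.5 (14.3 to 47.9). Elovl5 exceeded Elovl6 in TPM in every library, with a median ratio of 3.18 (2.03 to 8.43). The lowest library of CD M (3.52) lay above the highest of CD F (3.30). That gap was not tested and holds the same Elovl6 animals as the comparison of the sexes below, so it is not separate from it. The other ratios given here overlapped between CD F and CD M. Scd2 thus was the main stearoyl-CoA desaturase RNA of the colon in all 5 groups, and the median ratio to Scd1 was 6.67 in CD F, 8.81 in CD M, 6.26 in HFD F, 14.0 in HFD M and 11.5 in HFD+E2 M.

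The groups were compared on gene counts with edgeR's quasi-likelihood test, and p-values were adjusted by Benjamini-Hochberg over all genes tested. Fold changes are log2 ratios ± SE, and levels within a gene are given as CPM, the count per library size after TMM scaling. A gene is said to have risen or fallen where the adjusted p was below 0.05. The threshold of the study, read here as an unadjusted p below 0.05 with a log2 fold change beyond 0.4 since its methods do not say clearly whether p was adjusted, is looser and is given beside it. All 10 genes passed the filter on low counts in every comparison.

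In fits without covariates or a replicate block, Elovl6 was the one gene of the 10 that differed between groups after adjustment. It was higher in females than in males on CD. It encodes the elongase that turns palmitate into stearate. CPM ran from 20.33 to 29.2 in CD F (median 27.1) and from 13.3 to 20.26 in CD M (median 16.7). The groups did not overlap in CPM, but the lowest female and the highest male differed by less than 0.1 CPM. In TPM they did overlap, at 4.76 to 7.65 in CD F and 2.25 to 5.91 in CD M. The log2 fold change was 0.65 ± 0.12 (1.57-fold, adjusted p = 0.00658, edgeR), and it stayed between 0.59 and 0.71 without any 1 library, with adjusted p between 0.00593 and 0.0210 in all 12 fits. In this comparison 2.92% of the 14922 genes tested passed the adjusted threshold, 9.15% the study's, and 2.17% had groups that did not overlap.

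Markers of other cell types also differed between these 12 animals. All 10 of 10 smooth muscle markers were lower in CD F than in CD M at the study's threshold and 6 of them fell after adjustment (Actg2 by 0.95 on the log2 scale, adjusted p = 0.0022, edgeR). Summed over the list, they came to 2635 to 4089 TPM in CD F and 4147 to 6888 TPM in CD M, with Acta2 the most abundant gene in each library and no marker at 0. B cell markers went the other way, with 5 of 8 higher at the study's threshold and 0 after adjustment, and summed levels of 13.5 to 60.1 TPM in CD F and 0.757 to 45.2 TPM in CD M. Of the colonocyte markers, 3 of 11 tested were lower in CD F at the study's threshold. With the smooth muscle score (the mean log2 CPM of the markers) as a covariate, the log2 fold change of Elovl6 was 0.63 ± 0.20 (adjusted p = 0.198, edgeR). The call was lost while the size stayed. In that fit 0.241% of all genes passed the adjusted threshold, against 2.92% without the score. The score ran from 8.63 to 9.21 in CD F and from 9.02 to 9.80 in CD M, so the fit could hardly separate it from sex. Over all 30 libraries the deviations of Elovl6 from its group means had a Pearson r of −0.63 with the smooth muscle score, 0.51 with the colonocyte score and 0.46 with the B cell score, as a description of libraries that share their depth and make-up.

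On HFD no sex difference of Elovl6 was detected. CPM ran from 19.6 to 31.4 in HFD F (median 22.4) and from 14.5 to 36.7 in HFD M (median 21.8), and the ranges overlapped almost fully, with a log2 fold change of 0.01 ± 0.18 between females and males (95% interval −0.34 to 0.37, adjusted p = 0.994, edgeR). In males, HFD was accompanied by a higher Elovl6 at the study's threshold only (log2 fold change 0.49 ± 0.18, adjusted p = 0.741, edgeR), and without HFD M replicate 1, the highest library at 36.7 CPM, it was 0.32 and no longer past 0.4. With the smooth muscle score in the model it was 0.23 ± 0.18, short of the study's threshold. In females the log2 fold change to HFD was −0.14 ± 0.12. The test of the difference itself, the response of females minus that of males, gave −0.64 ± 0.23 (adjusted p = 0.626, edgeR), past the study's threshold in all 24 fits without 1 library and not past it with the smooth muscle score (−0.28 ± 0.21). With E2 no difference was detected in HFD males, as HFD+E2 M ran from 16.8 to 28.1 CPM (median 24.4), a log2 fold change of 0.01 ± 0.18 (95% interval −0.35 to 0.37, adjusted p = 0.990, edgeR).

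The Elovl6 gene lies at chr3:129532355-129638495 on the plus strand of GRCm38. The 219 bases before its start site (chr3:129532136-129532354, RefSeq, GRCm38.p6) are shown because this is the gene whose RNA differed, and they hold none of the motifs searched.
Elovl6: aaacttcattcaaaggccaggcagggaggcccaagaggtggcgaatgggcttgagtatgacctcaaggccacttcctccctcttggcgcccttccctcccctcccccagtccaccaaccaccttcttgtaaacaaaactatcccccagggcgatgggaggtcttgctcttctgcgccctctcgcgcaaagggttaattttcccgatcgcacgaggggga

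**Figure D2:**
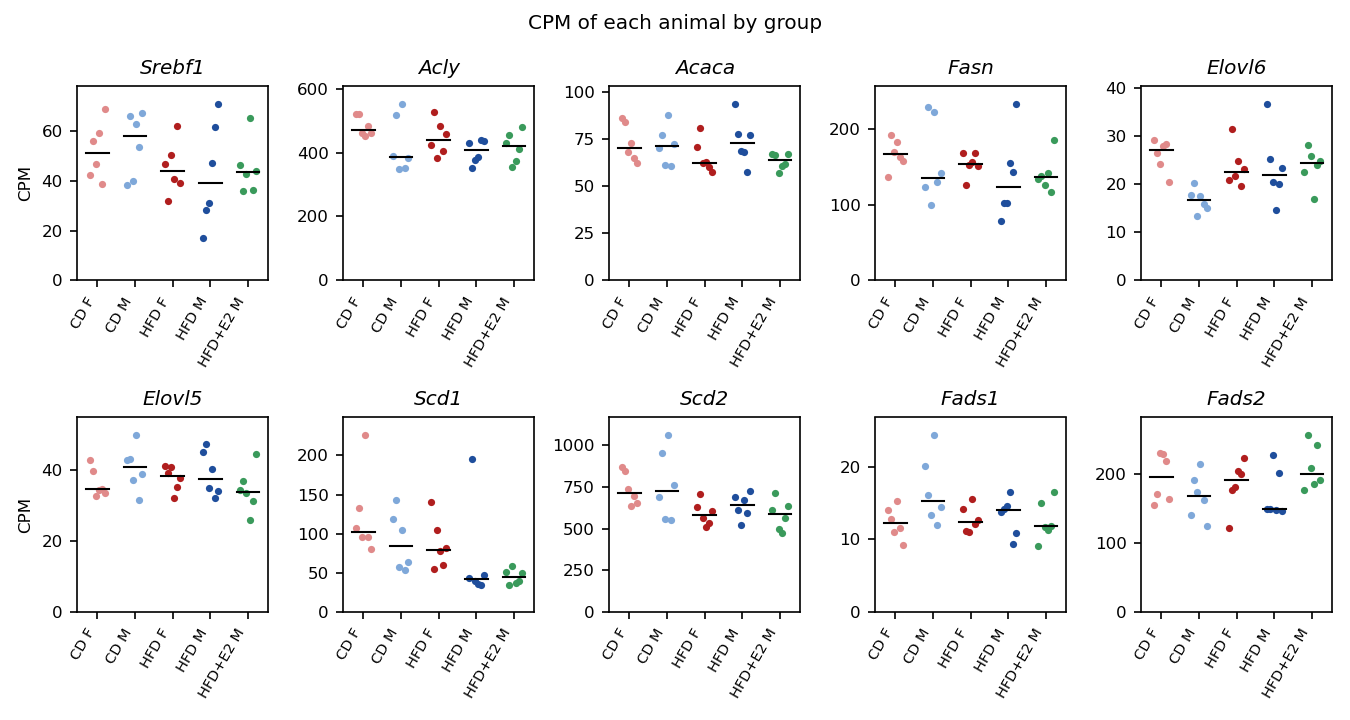
CPM of each gene in each animal (points) by group, with a line at the group median and axes from 0. Elovl6 separates CD F (20.33 to 29.2) from CD M (13.3 to 20.26), and Scd1 has single high animals in CD F (226 CPM) and HFD M (196 CPM).

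Scd1 varied most of the 10 genes. It encodes the oleate-forming desaturase that insulin and carbohydrate are known to raise in liver. CPM ran from 80.6 to 226 in CD F (median 101.7), from 52.9 to 142.8 in CD M (median 84.4), from 54.7 to 139.8 in HFD F (median 79.5), from 34.0 to 196.1 in HFD M (median 41.2) and from 33.8 to 58.6 in HFD+E2 M (median 44.3). HFD M held 5 animals at 34.0 to 47.0 CPM and 1 animal, replicate 2, at 196.1 CPM, and HFD+E2 M had no animal above 58.6 CPM. Scd1 did not pass the study's threshold in any comparison with edgeR, and with DESeq2 it passed for HFD in females only (−0.52 ± 0.26, adjusted p = 0.742). The study, which used DESeq2, lists Scd1 under lipid metabolism among its genes regulated by HFD in females. In edgeR the log2 fold change on HFD was −0.50 ± 0.28 in females (adjusted p = 0.973), −0.45 ± 0.49 in males (adjusted p = 0.887) and −0.48 ± 0.29 over both sexes (adjusted p = 0.998, edgeR).

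The high library of HFD M and the 2 highest of HFD F carried markers of sebaceous gland. Sebaceous glands belong to skin and perianal tissue and use Scd1, Scd3 and Elovl3 to make sebum. Their score (mean log2 CPM of the listed markers) was 3.09 in HFD M replicate 2, 2.41 in HFD F replicate 1 and 2.12 in HFD F replicate 3, and between −1.46 and −0.26 in the other 27. Summed over the 9 markers, these 3 libraries had 87.0 to 97.5 TPM, with Fabp5 the most abundant (46.0 to 75.0 TPM) and at most 1 marker listed at 0. The other 27 had 1.26 to 62.3 TPM (median 4.69), and the highest of them, HFD F replicate 4, owed 60.4 TPM to Fabp5. Scd3, a close copy of Scd1, had 230 counts in HFD M replicate 2, 88 in HFD F replicate 3, 49 in HFD F replicate 1 and at most 8 elsewhere, and Elovl3 had 74, 8 and 33 counts in these libraries and at most 3 elsewhere. Markers of stratified squamous epithelium were also present in all 3, at 563 to 1529 TPM summed over 15 genes. The Pearson r of Scd1 with the sebaceous score was 0.73 over the 30 libraries, and that of Scd2 was −0.03.

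Without these 3 libraries, an alternative chosen after the data were seen, Scd1 was lower on HFD at the study's threshold in both sexes. The 3 were taken by their sebaceous markers but were also the highest for Scd1 in their groups, and the high CD F replicate 4 (226 CPM) was kept, so that leaving them out lowers the HFD groups by construction. The remaining 4 HFD F animals had 54.7 to 81.2 CPM (median 68.9), against 80.6 to 226 in CD F, a log2 fold change of −0.84 ± 0.27, past the study's threshold. The remaining 5 HFD M animals had 34.0 to 47.0 CPM (median 39.7), against 52.9 to 142.8 in CD M, a log2 fold change of −1.18 ± 0.25 (adjusted p = 0.399). Over both sexes it was −1.02 ± 0.20 (adjusted p = 0.0743), and between the sexes on HFD Scd1 was then higher in females by 0.78 ± 0.15 (adjusted p = 0.144, edgeR). None of these passed the adjusted threshold, and the share of all genes past the study's threshold in these fits was 2.73% for females on HFD, 2.55% for males on HFD, 2.44% for both and 2.89% for sex on HFD, and past the adjusted threshold 0.0131%, 0%, 0.0435% and 0.0784%. The log2 fold change for E2, −0.56 ± 0.44 with all libraries (adjusted p = 0.627, edgeR), was 0.16 ± 0.15 without HFD M replicate 2 (adjusted p = 0.812).

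**Figure D3:**
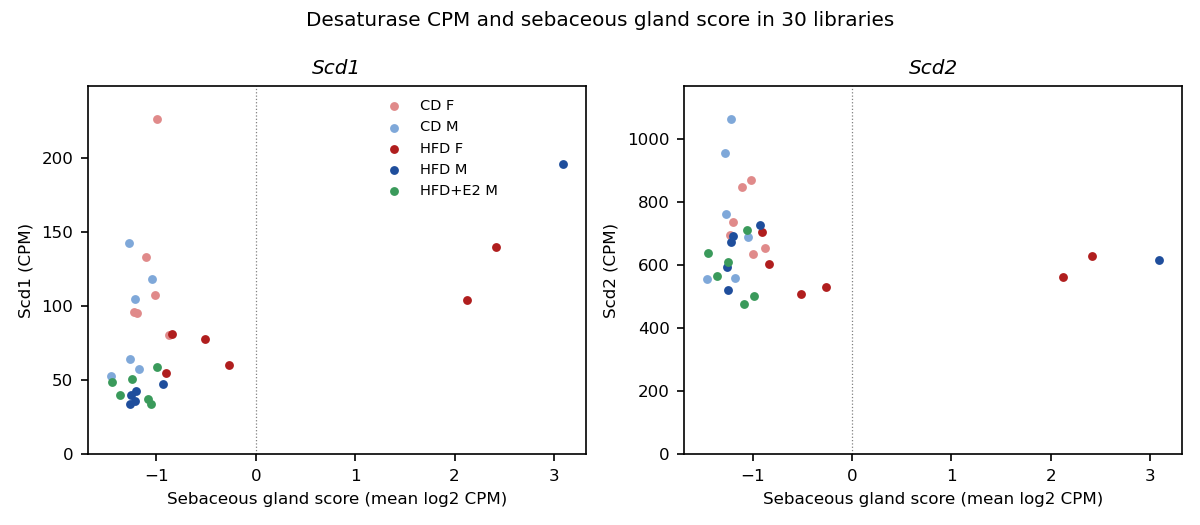
CPM of Scd1 (left) and Scd2 (right) against the sebaceous gland score of each of 30 libraries (mean log2 CPM of the markers), coloured by group, with a dotted line at 0. The 3 libraries right of the line have 104 to 196 CPM of Scd1, above the other animals of their groups, and 562 to 629 CPM of Scd2, within the range of theirs.

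Scd2, the other desaturase of this step, was lower on HFD by a small step, at an unadjusted p only. CPM ran from 633 to 871 in CD F (median 716), from 507 to 706 in HFD F (median 583), from 554 to 1061 in CD M (median 725) and from 521 to 726 in HFD M (median 643). The groups overlapped in both sexes. The log2 fold change was −0.32 ± 0.10 in females (adjusted p = 0.555), −0.26 ± 0.15 in males (adjusted p = 0.832) and −0.29 ± 0.10 over both sexes (adjusted p = 0.313, edgeR), so the unadjusted p was below 0.05 in females and in the joint fit, but the size never reached 0.4. Without the 3 sebaceous libraries it was −0.33, −0.25 and −0.29. Scd2 lies at chr19:44293676-44306864 and Scd1 near it at chr19:44394451-44407709. Over the 30 libraries their deviations from the group means were nearly unrelated (r = 0.18).

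Acly, Acaca and Fasn, the enzymes of palmitate synthesis, passed neither threshold in any comparison. Fasn ran from 136.6 to 191.4 CPM in CD F (median 166.3), from 99.6 to 228.5 in CD M (135.4), from 126.3 to 168.3 in HFD F (153.9), from 78.2 to 233.3 in HFD M (122.6) and from 116.7 to 185.7 in HFD+E2 M (135.9). Vehicle-treated males were spread more widely than females, with a coefficient of variation of 34.6% in CD M and 41.1% in HFD M against 11.6% in CD F and 10.01% in HFD F. The log2 fold change of Fasn lay between −0.21 (males on HFD, SE 0.28) and 0.18 (females against males on HFD, SE 0.21). Acly was steady, with group medians from 387 CPM in CD M to 471 CPM in CD F, and its fold changes lay between −0.11 and 0.18 on the log2 scale. Acaca had group medians from 62.3 CPM in HFD F to 72.7 CPM in HFD M, and its largest difference was for E2 (−0.23 ± 0.11, adjusted p = 0.491, edgeR). In HFD+E2 M it ran from 57.1 to 66.8 CPM, near the lower end of the range of HFD M (57.5 to 93.6).

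Srebf1 itself varied widely within groups, and no difference between groups was detectable. CPM ran from 38.5 to 69.1 in CD F (median 51.3), from 38.3 to 67.4 in CD M (58.2), from 31.8 to 61.9 in HFD F (43.8), from 16.9 to 71.1 in HFD M (39.1) and from 36.0 to 65.2 in HFD+E2 M (43.4). Every group overlapped every other. The log2 fold change on HFD was −0.20 ± 0.16 in females, −0.36 ± 0.30 in males (95% interval −0.95 to 0.24) and −0.28 ± 0.18 over both, and that for E2 was 0.08 ± 0.29. Counts per gene do not separate the SREBP-1a and SREBP-1c transcripts.

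The level of Srebf1 moved with a property of the library. For each library a GC trend was computed, the slope of its log2 CPM deviations on the GC content of the transcript across 15984 genes. The deviations of Srebf1 had a Pearson r of 0.89 with this trend over 30 libraries, those of Fasn 0.66, those of Elovl6 −0.60, those of Acaca −0.54 and those of Elovl5 −0.48. The longest transcripts of Srebf1 and Fasn have 58.4% and 57.9% GC, those of Elovl6 and Elovl5 44.0% and 44.8%, and the median gene 49.0%. HFD M had the widest trend, from −0.57 to 0.20 per 10 percentage points of GC, and its lowest library, replicate 1, held the lowest Srebf1 (16.9 CPM) and the highest Elovl6 (36.7 CPM) of the group. With the trend as a covariate, an alternative chosen after the data were seen, Srebf1 had a log2 fold change on HFD of −0.29 ± 0.10 in females, −0.14 ± 0.10 in males and −0.23 ± 0.07 over both sexes (adjusted p = 0.229, edgeR), short of 0.4 in each. Elovl6 kept its call between the sexes on CD in that fit (0.65 ± 0.12, adjusted p = 0.00588, edgeR, where 3.78% of all genes passed), and its difference in males on HFD was 0.35, short of 0.4.

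The Δ5 and Δ6 desaturases Fads1 and Fads2 lie near each other on chromosome 19 in opposite orientation (chr19:10182888-10196870 and chr19:10064164-10101503) and did not move together (r = 0.13 over 30 libraries). Without a block for the replicate number, Fads1 was lower in females than in males on CD at the study's threshold only. With that block, given below with the processing, Fads1 also passed the adjusted threshold. In the block fit 941 of 14922 genes passed it, against 435 without the block. CPM ran from 9.19 to 15.3 in CD F (median 12.2) and from 11.9 to 24.4 in CD M (median 15.3), overlapping between 11.9 and 15.3, with a log2 fold change of −0.44 ± 0.17 (adjusted p = 0.207, edgeR), past the study's threshold in 9 of 12 fits without 1 library (−0.31, −0.38 and −0.39 without CD M replicate 4, CD F replicate 6 and CD M replicate 1). On HFD the female to male difference was −0.05 ± 0.15, and the diet in males gave −0.34 ± 0.18 (adjusted p = 0.825, edgeR). With the smooth muscle score in the model the CD difference was −0.44 ± 0.27 and missed the study's threshold, with the limit of that fit given with Elovl6.

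Fads2 passed neither threshold for E2. CPM ran from 145.7 to 226.9 in HFD M, with 4 of 6 animals between 145.7 and 148.8, and from 176.0 to 256.3 in HFD+E2 M (medians 148.6 and 199.99). The log2 fold change was 0.30 ± 0.14 (adjusted p = 0.479, edgeR), with an unadjusted p below 0.05 but short of 0.4, and the groups overlapped. In this comparison 10.2% of all genes had an unadjusted p below 0.05. Fads2 had a median of 195.4 CPM in CD F and 167.7 CPM in CD M (log2 fold change 0.22 ± 0.14, adjusted p = 0.530, edgeR). With the smooth muscle score as a covariate that difference was 0.78 ± 0.15 (adjusted p = 0.0430, edgeR, where 0.241% of all genes passed). The fit without the score did not make this call. As given with Elovl6, the score hardly overlapped between CD F and CD M, so its share and that of sex cannot be told apart there. Elovl5 (chr9:77917364-77984519), the elongase that works between them, had group medians from 33.8 CPM in HFD+E2 M to 40.8 CPM in CD M and passed neither threshold anywhere, with log2 fold changes between −0.19 and 0.11.

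Counted together, the 10 genes gave few calls. The number past the study's threshold was 0 for HFD in females (3.67% of all genes), 1 for HFD in males (Elovl6, 2.90% of all genes), 2 for sex on CD (Elovl6 and Fads1, 9.15%), 0 for sex on HFD (3.09%), 0 for E2 (5.87%), 0 for HFD over both sexes (2.71%) and 1 for the difference between the sexes in response to HFD (Elovl6, 5.18%). After adjustment the counts were 0 except for sex on CD, where Elovl6 passed (2.92%), and the adjusted share of all genes was 0.0199% for HFD in females, 0% for HFD in males, 0.0988% for sex on HFD, 0.00666% for E2, 0.418% for HFD over both sexes and 0% for the difference between the sexes. At an unadjusted p below 0.05 alone the counts of the 10 were 1, 1, 2, 0, 1, 1 and 1 in the same order, beside 5.68%, 6.03%, 14.8%, 5.09%, 10.2%, 5.90% and 6.75% of all genes, and DESeq2 also made no adjusted call outside sex on CD. Of all genes past the study's threshold, the share that was higher was 43.3% in males on HFD. It was 50.9% in edgeR without the filter on low counts and 53.7% with DESeq2, which also ran without that filter. For sex on CD the share was 32.1%, against 51.4% with the smooth muscle score. With the squamous score it was 50.1% against 80.3% for HFD in females, 47.6% against 78.7% for both sexes and 44.8% against 65.0% for sex on HFD. Without the sebaceous libraries it was 67.6% for HFD in females and 61.6% for both sexes. On HFD 8 of 10 genes had an edgeR fold change below 0 in females, 7 of 10 in males and 9 of 10 over both sexes. The medians were −0.12, −0.14 and −0.12, against medians over all genes of 0.00, −0.01 and 0.00. As differences in log2(TPM + 0.1), Acly (0.0037), Elovl5 (0.17), Fads1 (0.15) and Fads2 (0.0075) were above 0 in females and the rest below. In males Elovl6 (0.51) and Fads2 (0.052) were above 0 on that scale and the rest below. The female and male comparisons share no library, while the joint fit uses both. For E2 the 10 genes were split 5 and 5 in edgeR, with a median of −0.04. As differences in log2(TPM + 0.1), only Fasn (0.0018) and Fads2 (0.16) were above 0 for E2. The rest were below 0, down to −0.40 for Scd1, so the split depended on the scaling.

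**Figure D4:**
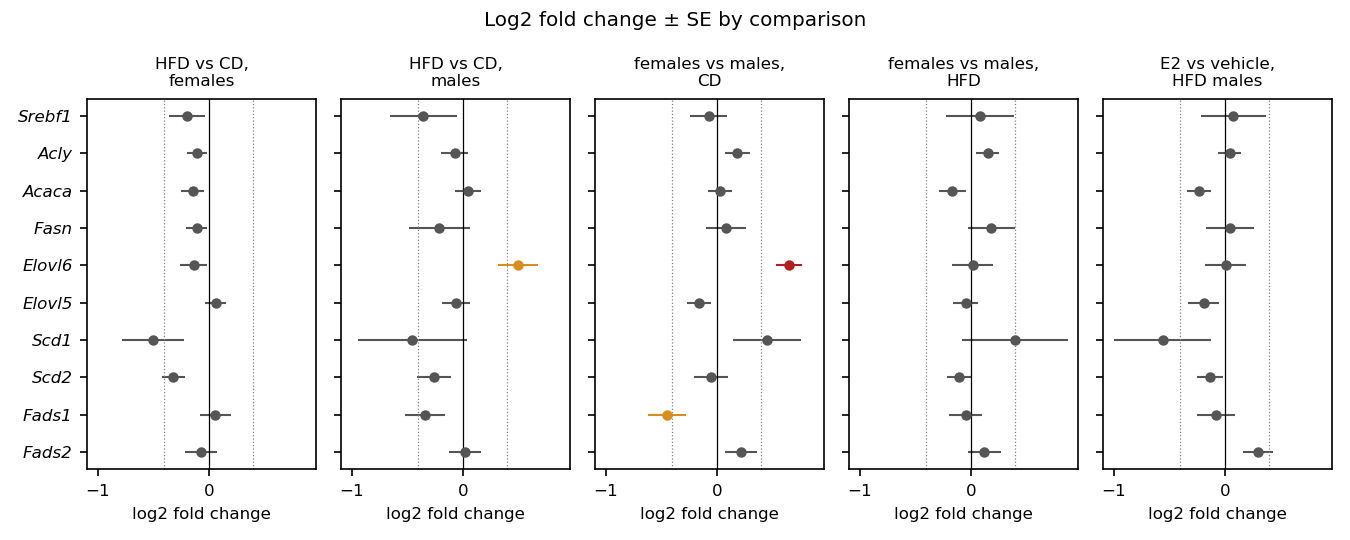
Log2 fold change ± 1 SE (edgeR) of the 10 genes in 5 comparisons, 1 panel each, with dotted lines at ±0.4. Red marks the adjusted call (Elovl6 for sex on CD), orange a gene past the study's threshold only (Elovl6 for HFD in males, Fads1 for sex on CD), and grey the rest.

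From animal to animal the 10 genes did not form 1 block. Taken as deviations from the group means over the 30 libraries, which share depth and make-up within a library, Acly and Scd2 had a Pearson r of 0.82, Acaca and Scd2 0.74, Scd2 and Elovl5 0.68, Acaca and Elovl5 0.67 and Acaca and Elovl6 0.63. Srebf1 and Fasn had an r of 0.75, Fasn also had 0.48 with Acly and 0.46 with Scd2, and Srebf1 had −0.59 with Elovl6. Srebf1, Fasn and Elovl6 also had an r beyond 0.59 with the GC trend, in the directions given above. Acaca (−0.54) and Elovl5 (−0.48) had an r with it in the direction of Elovl6. Fads2 had no r above 0.21 with any of the other 9, and the highest r of Scd1 was 0.50, with Elovl5.

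**Figure D5:**
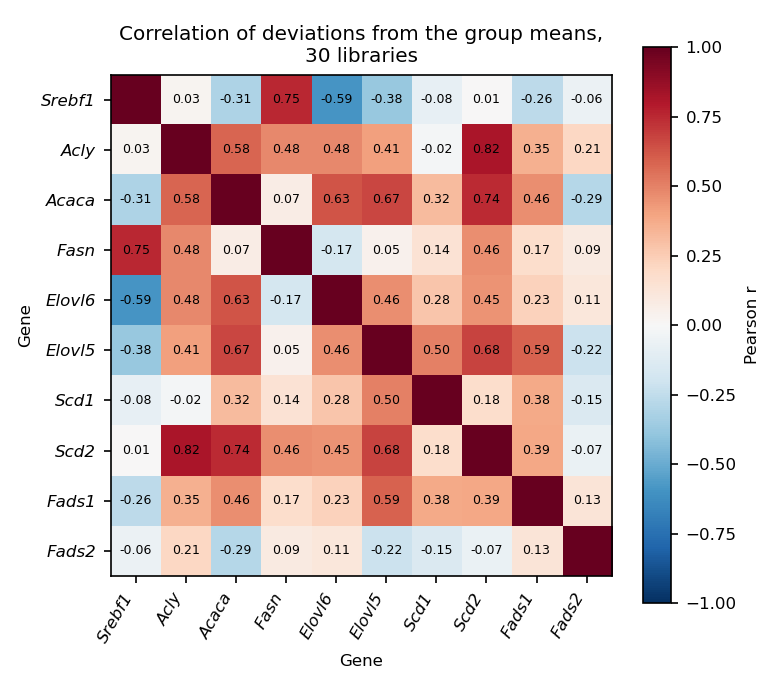
Pearson r between the deviations of each pair of the 10 genes from their group means (log2 CPM) over 30 libraries, from −1 (blue) to 1 (red). Acly, Acaca, Scd2, Elovl5 and Elovl6 have r of 0.41 to 0.82 with each other, and Srebf1 and Fasn have 0.75.

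The genes outside the 10 whose deviations were most like each member, out of 14886 ranked over 30 libraries, differed between members. Among the 3 highest for each were Dhcr7 and Sqle of sterol synthesis for Scd2 (r = 0.80 and 0.78), Acat2, Fdps and Lars for Acaca (0.84, 0.80 and 0.79), Mvk and Aacs for Fasn (0.90 and 0.85), and Lrrc59 and Cyb5b for Acly (0.74 and 0.72). For Scd1 they were Sdr16c6, Far2 and Ces1f (0.83, 0.80 and 0.78), of which Far2 is on the list of sebaceous markers. Elovl6 was followed by Agr2, Nxpe4 and Chst4 (0.83, 0.80 and 0.80), Elovl5 by Bub1, Fgfbp1 and Rrm1 (0.83, 0.82 and 0.80), Fads1 by Lca5, Sall1 and Ndc1 (0.73, 0.69 and 0.67), Fads2 by Ctsz, Thbs4 and Hmox2 (0.90, 0.85 and 0.85), and Srebf1 by Ndufb7, Tmem160 and Unc45a (0.97, 0.94 and 0.92), 3 genes of 53.6% to 64.2% GC.

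Srebf1 (chr11:60199089-60222581), Acly (chr11:100476353-100528000), Fasn (chr11:120805940-120824178) and Acaca (chr11:84129672-84401651) all lie on chromosome 11. Upstream sequence in RefSeq was at hand for 7 of the 10 genes, that is all but Scd1, Scd2 and Fads1. On either strand of these windows of up to 250 bases, the short sterol response element TCACNCCAC was found in 0 of 7 genes (1.05% of 32851 promoters), the DR4 element of LXR in 0 (0.0152%), the E-box CACGTG in Elovl5 (6.02%) and CCAAT, the box of the factor NF-Y, in Elovl5, Srebf1 and Fasn (33.8%). A match is a description of these letters and not a site. The 250 bases before 1 RefSeq start of Fasn (chr11:120824548-120824797, minus strand, GRCm38.p6) are shown because Fasn moved with Srebf1 and holds the most CCAAT matches, with the CCAAT boxes, or their complement ATTGG, in capitals at −90, −62 and −59 from the start. The last 2 overlap.
Fasn: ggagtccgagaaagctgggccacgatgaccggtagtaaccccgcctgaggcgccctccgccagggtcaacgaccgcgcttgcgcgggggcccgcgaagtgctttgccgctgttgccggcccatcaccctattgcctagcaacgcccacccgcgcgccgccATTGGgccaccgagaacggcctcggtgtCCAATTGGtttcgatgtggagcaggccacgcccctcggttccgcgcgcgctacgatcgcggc

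Of 43 other genes of fatty acid synthesis and its control, 36 to 40 were tested in each comparison and 0 passed the adjusted threshold in any. Past the study's threshold were 1 higher and 0 lower for HFD in females, 1 and 1 for HFD in males, 0 and 0 for sex on CD and for sex on HFD, 1 and 3 for E2, 1 and 1 for HFD over both sexes, and 2 and 0 for the difference between the sexes. Elovl4, an elongase of very long chains known from skin and retina, was the one higher on HFD, with log2 fold changes of 3.42 ± 0.90 in females and 3.46 ± 0.81 over both sexes (adjusted p = 0.0602, edgeR). Its counts were 315, 287, 121 and 39 in HFD F replicates 1, 3, 4 and 5, 575 in HFD M replicate 2, and at most 20 in all other libraries. Those 5 libraries were among the 6 with squamous epithelium markers. Elovl4 had 7 to 20 counts in CD F and 6 to 20 in CD M and passed the filter on low counts largely through HFD libraries. Its fold change is therefore no support for a direction. Thrsp, a lipogenic protein, was lower on HFD over both sexes at the study's threshold (−1.41 ± 0.43, adjusted p = 0.234, edgeR), on 1 to 43 counts in these 24 libraries. It had at most 11 counts in HFD F and 8 in HFD M and passed the filter on low counts mainly through CD libraries. Its difference is therefore no support for a direction. Nr1h3, which encodes LXRα, was higher with E2 at the study's threshold (0.45 ± 0.16, adjusted p = 0.455), at 10.5 to 12.9 TPM in HFD+E2 M (mean 11.9) and 6.62 to 11.7 TPM in HFD M (mean 8.81). Fads3, a desaturase homologue, had log2 fold changes of −0.46 for HFD in males and 0.69 for the difference between the sexes, and Cyb5r3, which passes electrons to the desaturases through cytochrome b5, had 0.48 for that difference, all past the study's threshold only.

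The 22 sterol synthesis genes, driven by the related factor SREBP-2, gave 0 adjusted calls in the same 7 comparisons. By sign alone, 20 of 22 were above 0 for HFD in females, 14 of 22 in males, 3 of 22 for sex on CD, 5 of 22 for sex on HFD and 3 of 22 for E2, with medians of 0.18, 0.06, −0.23, −0.11 and −0.32. Genes of this list share regulation and libraries, so these counts are a description. Idi1 and Hsd17b7 had log2 fold changes of −0.81 and −0.64 for E2, past the study's threshold only. In females on HFD the 10 fatty acid genes lay mostly below 0 in edgeR and the sterol genes mostly above, with medians of −0.12 and 0.18. In log2(TPM + 0.1) the 10 genes were mixed, with Acly (0.0037), Elovl5 (0.17), Fads1 (0.15) and Fads2 (0.0075) above 0 and the rest below. A difference between the lists was not tested.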

How the data were processed

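Distal colon was snap frozen, and Ribo-Zero stranded total RNA libraries were sequenced as paired reads of 51 bases, with 6 animals per group. The authors aligned reads to GRCm38 with STAR and deposited raw counts per gene from featureCounts and TPM from StringTie. The same deposited StringTie tables hold FPKM and mean coverage per gene, which the authors computed and which were not used. The submitters' processing notes also name bcl2fastq 2.19.1.403, CASAVA and Trim Galore. The strand setting of featureCounts and the annotation release are not given in the sources used here, so reads from overlapping genes on opposite strands cannot be told apart. Mitochondrial genes took 26.1% to 38.0% of the counts, which lowers the depth left for other genes. The 30 TPM tables each correlated best with the counts of their own library.

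Counts were filtered with filterByExpr, scaled by TMM and fitted with robust glmQLFit and glmQLFTest in edgeR 4.0.16 (R 4.3.3), separately for the samples of each comparison, with Benjamini-Hochberg adjustment over all genes. Diet over both sexes and the difference between the sexes in response to diet were fitted on the 24 vehicle libraries. Calls were made at an adjusted p below 0.05, beside the study's threshold of p below 0.05 and a log2 fold change beyond 0.4. CPM on the log2 scale used a prior count of 2. Intervals are the fold change with its SE on a normal scale. DESeq2 1.42.0, other filters and scalings, covariates, a replicate block and leaving out each library were alternatives, and leaving out the 3 libraries with sebaceous markers and the GC trend covariate were chosen after the data were seen. DESeq2 was run without the filter on low counts. The fits were tested on simulated data. Promoters and transcripts came from RefSeq GRCm38.p6 and the reference annotation.

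The 10 genes and all lists (partners of fatty acid synthesis, sterol synthesis, and markers of adipocytes, sebaceous gland, squamous epithelium, colonocytes, smooth muscle, B cells, macrophages and enteric glia) were chosen with earlier results of these data known. Named were the 10 genes, the listed genes past adjusted p 0.05 or else those lowest in unadjusted p, and the 3 genes most correlated with each member among genes of at least 1 CPM. Genes named for their counts beside Scd1 or Elovl4 (Scd3, Elovl3) and the colonocyte markers were named after their values were seen. Some genes that this rule names are not reported here.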

Additional observations from a re-analysis of the deposited data

Results flagged for a closer look

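Of 50 sets of 6 animals (10 genes in 5 groups), 4 held 1 animal far from the other 5, where chance flags about 1 set in 20. Scd1 was 226 CPM in CD F replicate 4, with the next animal at 133 CPM, and 196 CPM in HFD M replicate 2, with the next at 47.0 CPM. The sebaceous score of CD F replicate 4 was −0.99, near those of its group, while that of HFD M replicate 2 was the highest of all 30 libraries. Srebf1 was 65.2 CPM in HFD+E2 M replicate 4, with the next animal at 46.2 CPM. Fasn was 186 CPM in HFD+E2 M replicate 6, with the next animal at 142 CPM. The response of Elovl6 to HFD differed between females and males by −0.64 on the log2 scale at an unadjusted p of 0.00896 (adjusted p = 0.626, edgeR), and in this test 5.18% of all genes passed the study's threshold.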

How the results depend on the processing

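The number of the 10 genes past each threshold was the same in all 7 comparisons with all 30 libraries in 1 fit, with at least 10 counts in every library, without a filter and with DESeq2's size factors. At the study's threshold, HFD in females (0) gave 1 with DESeq2 (Scd1, −0.52), 1 with the adipocyte score (Scd1, −0.72), 2 with the squamous score (Scd1, −0.92, and Srebf1, −0.47) and 1 without the sebaceous libraries. HFD in males (1) gave 2 with the squamous score, 0 with the smooth muscle score and 2 without the sebaceous libraries, and with the GC trend its 1 gene was Fads1 (−0.42) in place of Elovl6. Sex on HFD (0) gave 1 without the sebaceous libraries. Both sexes (0) gave 2 with the adipocyte score (Scd1 and Srebf1, −0.46), 1 with the squamous score and 1 without the sebaceous libraries. The difference between the sexes (1) gave 0 with the smooth muscle score and 2 with the GC trend (Elovl6, −0.45, and Fads1, 0.48). Not every fold change was followed through the alternatives. Of the 14 that were, these reversed: Elovl6 for sex on HFD with the smooth muscle score (−0.0162), and Scd1 for E2 with the squamous score (0.20) and without the sebaceous libraries (0.16). In log2(TPM + 0.1) some other fold changes near 0 changed sign, among them Acly (−0.10) and Elovl6 (−0.13) for E2. The cause was not tested.

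Leaving out 1 library gave 0 to 1 for HFD in females (Scd1 without HFD F replicate 1), 0 to 2 for HFD in males (0 without HFD M replicate 1, Scd1 at −1.18 without HFD M replicate 2), 1 to 2 for sex on CD, 0 to 1 for sex on HFD (Scd1, 1.12, without HFD M replicate 2, and Fasn, 0.41, without HFD M replicate 6), 0 to 1 for both sexes (Scd1 without HFD M replicate 2) and 1 to 2 for the difference between the sexes (Fads1, 0.47, without CD M replicate 5). Elovl6 for sex on HFD ranged from −0.0908 to 0.19 and Scd1 for E2 from −0.69 to 0.16. Of 30 pairs of animals with the same number, 18 deviated together with a correlation over 0.1 (median 0.12, from −0.22 to 0.47), but in no comparison did every pair, and the numbers were not taken to pair the animals. With the replicate block, HFD in males gave 3 (Srebf1, −0.47, Scd1, −0.69, and Elovl6, 0.45), and sex on CD gave 3 at the study's threshold and 2 after adjustment (Elovl6 and Fads1, −0.42, adjusted p = 0.0366, edgeR).

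Over all genes, the study's threshold was passed by 553 genes for HFD in females (1018 with DESeq2, 1496 unfiltered, 353 with the squamous score), 434 in males (1056 unfiltered), 1366 for sex on CD (2253 unfiltered), 469 for sex on HFD (730 with DESeq2, 1165 unfiltered), 881 for E2 (1805 unfiltered, 500 with the squamous and 514 with the smooth muscle score, 557 without the sebaceous libraries, 417 with the GC trend), 428 for both sexes (848 with DESeq2, 1709 unfiltered, 165 with at least 10 counts) and 818 for the difference (1543 unfiltered, 453 with the squamous and 413 with the smooth muscle score, 537 without the sebaceous libraries). Adjusted calls were 435 for sex on CD (774 with DESeq2, 941 with the block, 247 with the squamous and 36 with the smooth muscle score), 3 for HFD in females (214 with DESeq2, 86 with all libraries in 1 fit, 12 with the block), 0 in males (26 with DESeq2), 15 for sex on HFD (50 with DESeq2, 30 with all libraries in 1 fit, 1 with at least 10 counts), 1 for E2 (38 with DESeq2, 7 with the block), 0 for the difference (7 with DESeq2) and 66 for both sexes (203 with DESeq2, 20 with the block, 4 with at least 10 counts, 5 with the adipocyte and 8 with the squamous score, 7 without the sebaceous libraries). Without 1 library the study's threshold was passed by 346 to 706 genes for HFD in males (highest without CD M replicate 1), 363 to 770 for sex on HFD (720 and 770 without HFD M replicate 6 and HFD F replicate 2), 557 to 1497 for E2 (557, 1391 and 1497 without HFD M replicate 2, HFD M replicate 5 and HFD+E2 M replicate 1) and 641 to 1418 for the difference (highest without HFD F replicate 2), and adjusted calls ranged from 244 to 691 for sex on CD (without CD M replicates 3 and 1), from 1 to 11 for HFD in females and from 1 to 119 for both sexes (1 without CD F replicate 3 or 5, 119 without HFD F replicate 6). Fads1, at 94 to 324 counts, was the least deeply counted gene.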

Other observations

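Markers of other cell types past the study's threshold (edgeR) were as follows, beside those given with Elovl6. Squamous epithelium markers were higher on HFD over both sexes in 13 of 13 tested, with 8 adjusted calls, but these genes are near 0 elsewhere (Sprr3 had 0 counts in 21 libraries and Krt6a in 18) and could pass the filter on low counts only through the HFD libraries where they are high, so this count is no support for a direction. The 6 libraries with a score above 0 were all on HFD (HFD F replicates 1, 3, 4 and 5 and HFD M replicates 2 and 4). Sebaceous markers were higher in 2 of 3 tested over both sexes, 0 after adjustment. Of the adipocyte markers, 2 of 12 tested were higher over both sexes and 1 was an adjusted call, Lep, which encodes leptin (log2 fold change 2.45, adjusted p = 0.0315). Lep had 0 to 11 counts in the CD libraries and, like the squamous markers, passed the filter on low counts mainly through HFD libraries, so its call is no support for a direction. The Pearson r of Fasn with the adipocyte score was 0.60 over 30 libraries, that of Srebf1 0.52 and that of Scd1 0.45. Of 8 macrophage markers, 3 were lower in females than in males on CD and 2 were higher with E2, and of the enteric glia and Schwann cell markers 1 of 6 was lower in females on CD and 1 of 6 lower with E2, with 0 adjusted calls for either list in these comparisons. Other markers past the study's threshold only, by log2 fold change, were Cfd (1.73), Car4 (0.45), Lmod1 (0.47), Far2 (−1.15), Krt14 (−2.92) and Slc26a3 (−0.57) for E2, Cfd (2.02), Krt14 (4.15) and Actg2 (−0.54) for sex on HFD, and Fabp4 (0.55), Fabp5 (2.21), Far2 (1.25), Sbsn (1.18), Cfd (−1.49), Car1 (−1.05) and Lmod1 (−0.43) for HFD in males. For sex on CD, 1 adipocyte marker was higher and 2 were lower, among them Acvr1c (0.72) and Slc2a4 (−0.57). For HFD in females, 1 adipocyte marker was higher and 1 lower, 2 of 3 sebaceous markers and 3 of 3 squamous markers tested were higher. In the difference between the sexes, 3 smooth muscle markers and 1 marker each of adipocytes, colonocytes, macrophages and enteric glia were higher. The part of these cell types in the values of the 10 genes was not tested beyond the fits with scores and without libraries given here.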
